A study of Mus musculus with 6 samples.

Results

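The tumour necrosis factor (TNF) superfamily was followed here through 10 genes, the ligand genes *Tnf*, *Lta*, *Ltb*, *Tnfsf9*, *Tnfsf10*, *Tnfsf13b* and *Tnfsf15* and the receptor genes *Tnfrsf1a*, *Tnfrsf1b* and *Fas*. They were chosen by name: every array spot that was not a control and carried 1 of these gene names was taken, and all probes of a gene were kept. The names were listed with earlier results of these data known, so counts set against all genes below are a description. All 10 genes were found, with 11 probes, among 22221 genes that probes of these arrays matched in RefSeq. Ligands of this family are mostly made as membrane proteins that assemble in trimers, and some are released from the cell surface by proteases. Their receptors recruit TRAF adaptors and kinases that activate NF-κB, and those with a death domain, such as TNFR1 (*Tnfrsf1a*) and Fas, can also start cell death. Macrophages are a main source of TNF after contact with bacterial products, and they carry both TNF receptors themselves.

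The cells were mouse bone marrow–derived macrophages (BMDMs), grown for 7 days in medium conditioned by L929 cells from the marrow of wild type, female C57BL/6 mice. The labels give the mice as 6 to 8 weeks old, and the methods of the study give an older range. The groups were untreated cells, cells given 100 ng/ml lipopolysaccharide (LPS, a bacterial cell wall component sensed by TLR4) for 4 h, and cells given the same LPS after 30 min with 10 μM HBX41,108, a small molecule inhibitor of the deubiquitinase USP7 (LPS+USP7i). The treatment protocol in the labels states the LPS dose per μl where the design text states it per ml, and no source used here says whether the LPS cells received the inhibitor's solvent. Each group had 2 arrays, described in the design text as separate experiments, which makes every estimate below imprecise.

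Labelled RNA was read on 1-color Agilent arrays with 59305 spots that were not controls, and between 25002 and 27467 of these spots were well above background on an array. Values are log2 of the spot intensity after quantile normalization, averaged over the spots of a probe. All 6 arrays lay on 1 slide, with the groups in slide columns 1, 2 and 4 and the replicates in rows 1 and 2, so the place on the slide and the treatment cannot be told apart.

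The labelled cell type was checked with marker lists. All 9 macrophage markers were well above background on all 6 arrays, with the highest mean signal from *Csf1r*, the gene for the M-CSF receptor. Their summed intensity was 733400 and 724400 in untreated cells, 724000 and 748800 in LPS cells, and 629500 and 588100 in LPS+USP7i cells. Of 7 T cell markers, 4 or 5 were well above background on an array, with the highest signal from *Lck* on the LPS arrays and from *Cd3e* on the others, and with *Cd3g* and *Tcf7* below it on all 6 arrays. The summed T cell marker intensity was 1027 and 1191 in untreated cells, 2838 and 3387 after LPS and 1363 and 1559 in LPS+USP7i cells. The kinase gene *Lck* was the T cell marker that changed, by 4.23 with LPS (adjusted p = 0.00331) and by −2.47 with the inhibitor on top (adjusted p = 0.0161). Of 5 B cell markers, 2 to 5 were well above background on an array, led by *Cd79b*, with summed intensities of 1057 and 668.5, 1153 and 532.7, and 714.9 and 314.5 in the same group order. The transcription factor gene *Pax5* was below background outside LPS+USP7i cells and at least 1.39-fold higher there than with LPS (adjusted p = 0.0244). In every group the lower B cell sum belonged to replicate 2.

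Markers of 4 further cell types were above background for part of each list. Of 4 NK cell markers, 1 to 3 were well above background on an array (*Klre1* on none), led by *Prf1*, with sums between 227.4 and 415.2. Of 7 neutrophil markers, 4 to 6 were (*Cxcr2* on none), led by *Elane*, with sums between 4149 and 4791. Of 4 dendritic cell markers, 1 or 2 were, led by *Siglech*, with sums between 24850 and 51410, while *Flt3* and *Xcr1* were below background on all arrays. *Zbtb46* from this list was at least 5.65-fold higher with LPS than in untreated cells (adjusted p = 0.00435). *Siglech* went the other way, from 15.46 and 15.21 in untreated cells to 14.62 and 14.59 after LPS. In LPS+USP7i cells it was at 15.65 and 15.08. Its differences, −0.73 with LPS and 0.75 with the inhibitor on top, were without overlap but did not pass the threshold. Of 4 stromal markers, only *Col1a2* was above background, on 1 array, and the sums lay between 36.5 and 49.3. The part of other cells in the values below was not tested, and in these bulk samples fewer cells of a type and less RNA per cell cannot be told apart.

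LPS raised 7 of the 10 members and lowered 0 at an adjusted p under 0.05 in limma. Of all 22221 genes, 9.09% were higher and 16.7% were lower by the same rule. At an unadjusted p under 0.05 the members' counts were 8 higher and 0 lower, against 13.6% and 25.4% of all genes. Both LPS arrays lay above both untreated arrays in 8 of 10 members and below them in 0, against 29.9% and 35% of all genes. The members' median difference was 4.60 on the log2 scale, and that of all genes was −0.01. The genes that rose were the ligands *Tnf*, *Lta*, *Tnfsf9*, *Tnfsf10* and *Tnfsf15* and the receptors *Tnfrsf1b* and *Fas*.

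**Figure D1:**
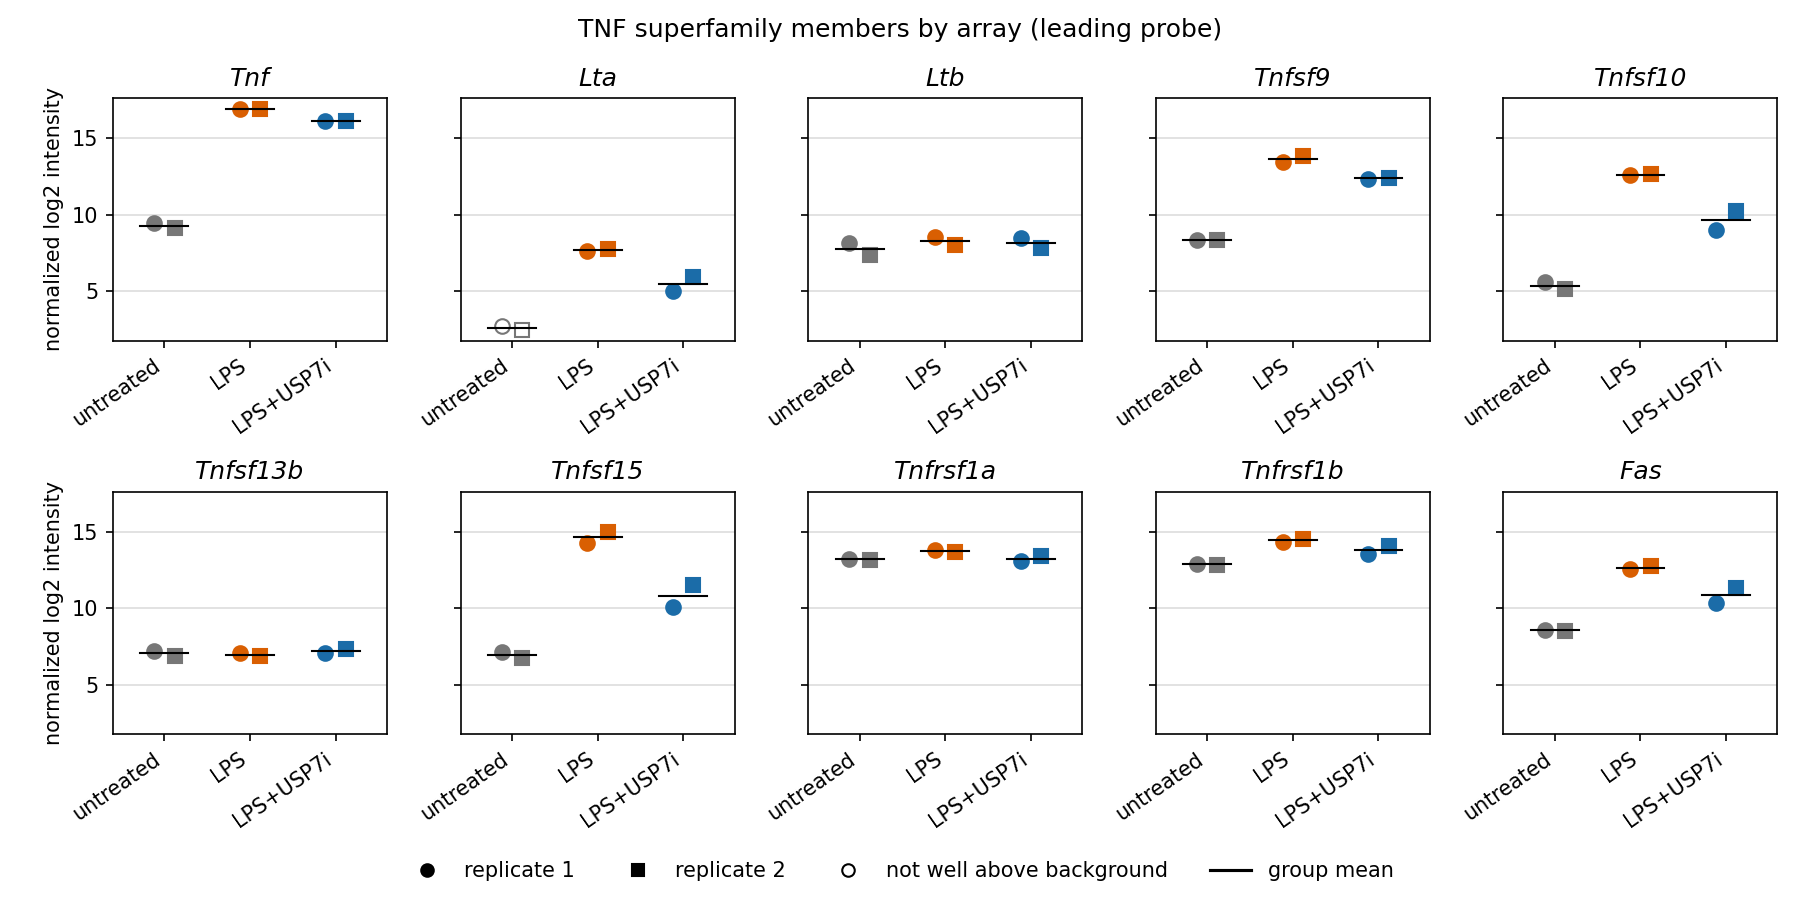
Normalized log2 intensity of the leading probe of each of the 10 members on each of the 6 arrays, with a line at each group mean, circles for replicate 1 and squares for replicate 2. In untreated cells the open symbols of Lta (2.72 and 2.49) are not well above background, and for Tnfsf15 the LPS arrays (14.29 and 15.01) lie above the LPS+USP7i arrays (10.12 and 11.50), which lie above the untreated arrays (7.18 and 6.75).

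The genes *Tnf*, *Lta* and *Ltb* encode TNF and the lymphotoxins α and β, and their probes lie within 7238 bases of each other at chr17:35333097-35340334 (build mm9). *Tnf*, measured by 10 spots per array of a probe at chr17:35336795-35336854, was at 9.43 and 9.14 in untreated cells, 16.89 and 16.90 after LPS and 16.14 and 16.10 in LPS+USP7i cells. The arrays fell in 3 separate levels, with LPS highest and untreated cells lowest. *Tnf* rose with LPS by 7.61 (standard error 0.12, adjusted p = 0.00152), which is 195-fold. The lymphotoxin α gene *Lta*, whose product is secreted and binds the same receptors as TNF, was at 2.72 and 2.49 in untreated cells, 7.61 and 7.75 after LPS and 4.99 and 5.93 in LPS+USP7i cells. Its probe, 10 spots at chr17:35340275-35340334, was not well above background on either untreated array and was well above it on the other 4. *Lta* was at least 13.6-fold higher with LPS than in untreated cells (adjusted p = 0.00485), where the bound puts the detection floor of each untreated array in place of the dim value. This bound holds for the signals used here: the difference was 1.90 with normexp background correction and 3.23 in the deposited table, both under it and both past the threshold.

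*Ltb* encodes lymphotoxin β, the membrane partner of lymphotoxin α. Its probe at chr17:35333097-35333156 was at 8.13 and 7.39 in untreated cells, 8.53 and 8.02 after LPS and 8.47 and 7.82 in LPS+USP7i cells. The groups overlapped, and replicate 1 was above replicate 2 in each of them. The difference with LPS was 0.52 (95% confidence interval −0.58 to 1.61, adjusted p = 0.515). With the replicate number as a block in limma the same difference passed the threshold (adjusted p = 0.0496). The labels do not say that a number marks a shared experiment. By the brightest probe of each gene, *Ltb* was the only member of the 10 with replicate 1 above replicate 2 in all 3 groups. The B cell markers well above background on all 6 arrays, *Cd79a* and *Cd79b*, also had that order. For the B cell receptor component *Cd79a* replicate 1 was above replicate 2 by 1.02, 1.67 and 1.66 in untreated, LPS and LPS+USP7i cells, and for *Ltb* by 0.74, 0.51 and 0.65. The T cell markers well above background on all 6 arrays were split, with *Cd3e* and *Cd2* in that order and *Cd5* and *Lck* in the opposite one. Whether lymphocytes contributed to the *Ltb* signal was not tested.

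The promoters of these 3 neighbours are shown because *Tnf* and *Lta* rose with LPS and *Ltb* lies beside them. The sequences are RefSeq's (GRCm38.p6), 5′ to 3′ on the gene's strand, from 250 bases before to 50 bases after the start, at chr17:35201958-35202257 (minus strand) for *Tnf*, chr17:35205302-35205601 (minus strand) for *Lta* and chr17:35194257-35194556 (plus strand) for *Ltb*. Capitals mark a TATA box (TATAAA) in *Tnf* and *Lta* and a match to the κB consensus on the opposite strand in *Ltb*.
Tnf: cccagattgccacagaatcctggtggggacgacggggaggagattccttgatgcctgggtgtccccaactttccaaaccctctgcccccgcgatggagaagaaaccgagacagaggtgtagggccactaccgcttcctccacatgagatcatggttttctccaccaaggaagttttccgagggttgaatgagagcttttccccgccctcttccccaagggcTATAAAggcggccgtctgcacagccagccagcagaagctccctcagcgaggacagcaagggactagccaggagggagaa
Lta: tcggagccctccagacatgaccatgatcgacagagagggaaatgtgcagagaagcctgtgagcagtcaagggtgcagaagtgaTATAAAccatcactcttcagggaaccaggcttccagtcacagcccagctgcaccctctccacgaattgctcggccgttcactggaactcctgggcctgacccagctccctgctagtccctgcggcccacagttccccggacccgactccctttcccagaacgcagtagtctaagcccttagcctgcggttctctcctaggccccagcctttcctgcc
Ltb: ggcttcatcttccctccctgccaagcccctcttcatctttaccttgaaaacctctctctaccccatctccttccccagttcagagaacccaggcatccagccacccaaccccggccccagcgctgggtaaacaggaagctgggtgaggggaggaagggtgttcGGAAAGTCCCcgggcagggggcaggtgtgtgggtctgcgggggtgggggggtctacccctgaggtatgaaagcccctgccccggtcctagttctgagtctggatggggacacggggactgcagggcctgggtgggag
The TATA box lies 29 to 24 bases before the start in *Tnf* and 167 to 162 bases before it in *Lta*, and the κB match in *Ltb* lies 87 to 78 bases before the start.

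The κB consensus, the core of the interferon-stimulated response element (ISRE) and the TATA box letters were searched on both strands in the windows of the 9 members that the promoter table holds, all but *Tnfsf9*. The κB consensus was in 1 of 10 windows (*Tnfsf13b* has 2), the ISRE core in 2, those of *Tnfsf13b* and *Tnfrsf1b*, and the TATA box in 2. None of these matches overlapped another motif. Of 32817 promoters in the table, 8.46% hold the κB consensus, 3.43% the ISRE core and 13.6% the TATA box. A match describes letters and is not a measured site, and a window without a match says nothing about sites outside its 300 bases.

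*Tnfsf9* encodes 4-1BB ligand, a costimulatory ligand on antigen-presenting cells. It was at 8.32 and 8.35 in untreated cells, 13.47 and 13.86 after LPS and 12.32 and 12.42 in LPS+USP7i cells (probe at chr17:57247062-57247121). The 3 groups did not overlap, and LPS was highest. The rise with LPS was 5.33 (standard error 0.15, adjusted p = 0.00249). *Tnfsf10* encodes TRAIL, a ligand of death receptors that interferons are known to induce. It was at 5.58 and 5.17 in untreated cells, 12.57 and 12.65 after LPS and 9.03 and 10.26 in LPS+USP7i cells (probe at chr3:27238508-27238567). Untreated and LPS arrays were close to each other within their group, whereas the LPS+USP7i arrays were further apart and lay between them. *Tnfsf10* rose with LPS by 7.23 (standard error 0.46, adjusted p = 0.00438).

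*Tnfsf15* encodes TL1A, the ligand of the death domain receptor DR3 (*Tnfrsf25*). It was at 7.18 and 6.75 in untreated cells, 14.29 and 15.01 after LPS and 10.12 and 11.50 in LPS+USP7i cells (probe at chr4:63388134-63388193). Its groups did not overlap, and its arrays were also further apart with the inhibitor than without. *Tnfsf15* rose with LPS by 7.68 (standard error 0.57, adjusted p = 0.00535), which is 206-fold. *Tnfsf13b* encodes BAFF, a survival factor for B cells. It was at 7.23 and 6.92 in untreated cells, 7.09 and 6.88 after LPS and 7.12 and 7.37 in LPS+USP7i cells (probe at chr8:10035561-10035620). Untreated and LPS arrays overlapped, and the difference between them was −0.09 (95% confidence interval −0.55 to 0.38, adjusted p = 0.864).

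Among the receptors, *Tnfrsf1a* encodes TNFR1, which carries a death domain. Its 10-spot probe at chr6:125312376-125312435 was at 13.26 and 13.15 in untreated cells, 13.80 and 13.68 after LPS and 13.09 and 13.40 in LPS+USP7i cells. Its other probe, 1 spot at chr6:125311922-125311981, was at 12.14 and 11.94, 13.00 and 12.53, and 12.26 and 12.24 in the same order. On both probes the LPS arrays were the highest, without overlap with untreated cells. Neither difference passed the threshold: it was 0.54 on the 10-spot probe (95% confidence interval 0.16 to 0.91, adjusted p = 0.076) and 0.73 on the other (adjusted p = 0.0788). The 10-spot probe passed in 6 alternatives. In 1 of these, 75th percentile scaling, it stood at 1.05 (adjusted p = 0.0105), but the median of all probes also moved by 0.51, and the probe was 0.55 above that median.

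*Tnfrsf1b* encodes TNFR2, which lacks a death domain and binds TRAF2. It was at 12.91 and 12.83 in untreated cells, 14.36 and 14.53 after LPS and 13.55 and 14.05 in LPS+USP7i cells (probe at chr4:144802359-144802418). The 3 groups did not overlap. It rose with LPS by 1.57 (standard error 0.19, adjusted p = 0.0138). That call was lost with any untreated or LPS array left out, with an adjusted p of 0.0719 and 0.0819 without untreated replicate 1 and 2 and of 0.0632 and 0.0678 without LPS replicate 1 and 2.

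*Fas* encodes the receptor of Fas ligand. It was at 8.58 and 8.54 in untreated cells, 12.57 and 12.75 after LPS and 10.38 and 11.34 in LPS+USP7i cells (2 spots at chr19:34402164-34402223). The LPS+USP7i arrays lay between the other groups, with replicate 1 the lower. *Fas* rose with LPS by 4.11 (standard error 0.35, adjusted p = 0.00662). The LPS calls of *Tnf*, *Lta*, *Tnfsf9*, *Tnfsf10*, *Tnfsf15* and *Fas* held in all 15 alternatives tried.

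The comparison of LPS+USP7i with LPS asks what differs when the inhibitor is given before LPS. No group had the inhibitor alone or a loss of USP7 by other means. Whether the differences come from inhibition of USP7 or from other effects of the compound was not tested. This comparison shares the LPS arrays with the comparison above, so the values of each gene stand side by side here and are not independent. With the inhibitor 5 of the 10 members were lower and 0 were higher, where 5.22% of all genes were lower and 6.95% were higher. All 5 were ligand genes, *Tnf*, *Lta*, *Tnfsf9*, *Tnfsf10* and *Tnfsf15*. With dim probes left out, 3287 of 25084 probes were lower and 3772 higher. At an unadjusted p under 0.05 in limma 8 members were lower and 0 higher, against 13.8% and 16.6% of all genes. The arrays of the 2 groups did not overlap in 8 lower members and 1 higher member, against 26.8% and 28.6% of all genes. The members' median difference was −1.04, and that of all genes was 0.001. The calls depended on the arrays in the fit: 0 members were lower with only these 2 groups in the fit or without untreated replicate 1 or 2, 1 without LPS replicate 1 or 2, 3 without LPS+USP7i replicate 1 and 4 without LPS+USP7i replicate 2. The count was 7 with normexp, 6 with dim probes left out, 6 with a trended prior and 1 with the replicate number as a block. With 2 arrays in each group, the smallest p that permuting them could reach for a gene is 0.333.

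**Figure D2:**
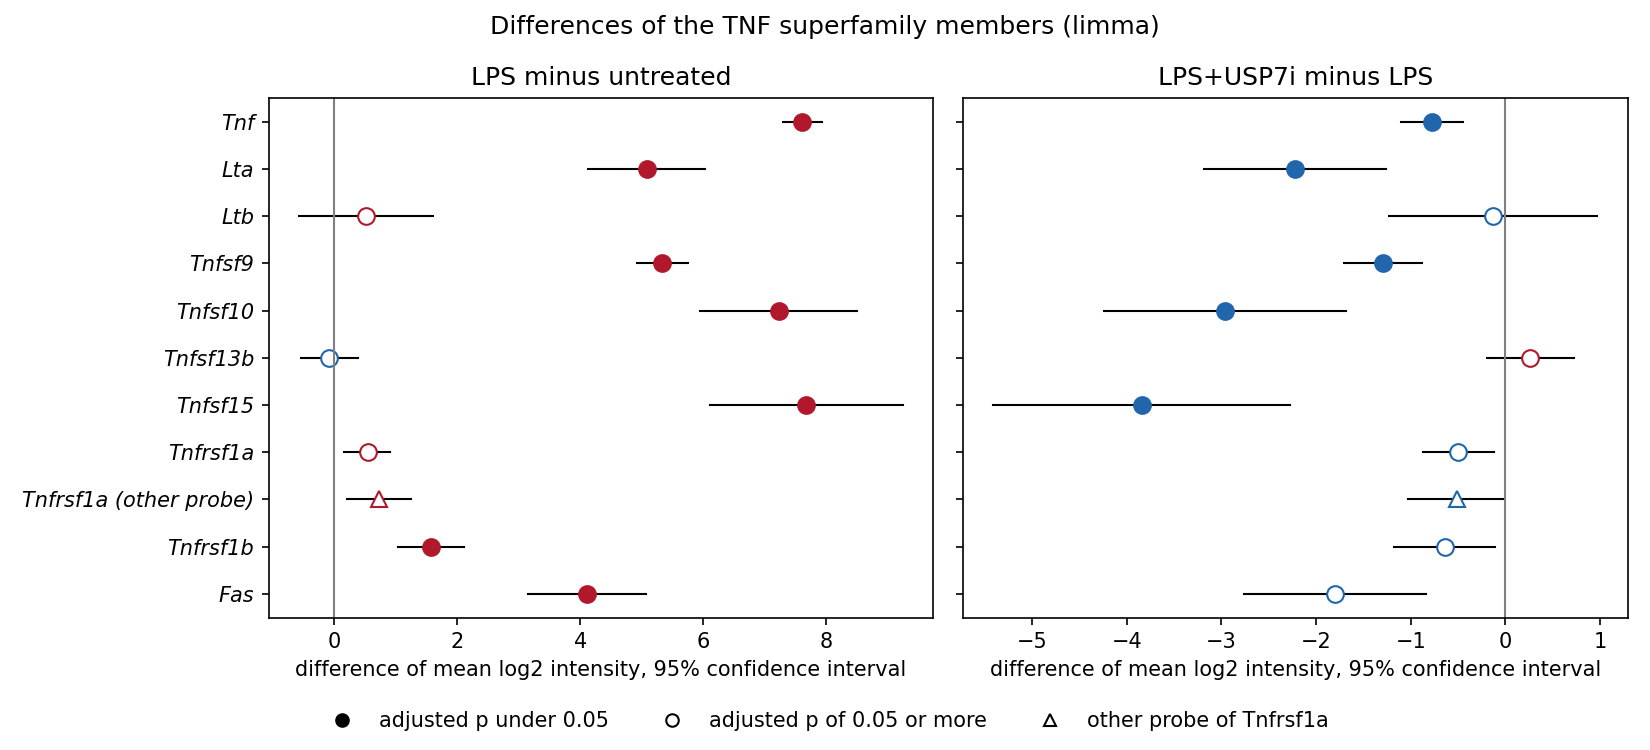
Differences of mean log2 intensity with 95% confidence intervals for the 11 probes of the members, LPS minus untreated on the left and LPS+USP7i minus LPS on the right, filled where the adjusted p was under 0.05. On the right, Tnfsf15 (−3.84) and Tnfsf10 (−2.96) lie furthest below 0, and on the left the Lta value is measured against untreated arrays below background.

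*Tnf* fell by 0.78 with the inhibitor (standard error 0.12, adjusted p = 0.0382), a 1.71-fold difference, and by 0.76 and 0.79 between the arrays of replicate 1 and of replicate 2. The call held in 6 of 15 alternatives and was lost in the deposited table, where *Tnf* fell by 0.82 (adjusted p = 0.0508). This was the smallest of the 5 changes past the threshold, and *Tnf* stayed 6.84 above untreated cells. *Lta* fell by 2.22 (standard error 0.35, adjusted p = 0.0415), and by 1.25 with normexp and 1.75 in the deposited table. *Tnfsf9* fell by 1.29 (standard error 0.15, adjusted p = 0.0253), which is 2.45-fold. The widest changes were in the genes for TL1A and TRAIL. *Tnfsf15* fell by 3.84 (standard error 0.57, adjusted p = 0.0375), which is 14.3-fold, and *Tnfsf10* fell by 2.96 (standard error 0.46, adjusted p = 0.0414), which is 7.79-fold. Across the 15 alternatives the difference ran from −4.52 to −3.15 for *Tnfsf15* and from −3.58 to −2.34 for *Tnfsf10*. Whether these changes differ between the ligands was not tested.

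The promoters of *Tnfsf15* (chr4:63745010-63745309, minus strand) and *Tnfsf10* (chr3:27316827-27317126, plus strand) are shown for these widest changes, from the same RefSeq table and build. Neither window held any of the 3 motifs, so no base is in capitals.
Tnfsf15: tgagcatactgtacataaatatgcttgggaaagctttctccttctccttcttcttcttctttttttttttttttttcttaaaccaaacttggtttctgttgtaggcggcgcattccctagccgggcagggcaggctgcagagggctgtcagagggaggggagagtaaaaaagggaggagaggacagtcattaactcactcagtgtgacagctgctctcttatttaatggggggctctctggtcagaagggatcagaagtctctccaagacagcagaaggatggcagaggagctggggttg
Tnfsf10: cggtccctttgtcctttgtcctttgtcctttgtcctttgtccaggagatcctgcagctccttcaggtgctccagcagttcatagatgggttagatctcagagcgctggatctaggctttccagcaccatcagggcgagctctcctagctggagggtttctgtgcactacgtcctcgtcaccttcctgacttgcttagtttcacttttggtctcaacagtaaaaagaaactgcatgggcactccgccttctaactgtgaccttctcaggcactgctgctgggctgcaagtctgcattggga
In both windows the letters searched for are absent from these 300 bases, which says nothing about any factor.

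The other ligands did not pass. *Ltb* differed by −0.13 (95% confidence interval −1.23 to 0.97, adjusted p = 0.935) and *Tnfsf13b* by 0.26 (95% confidence interval −0.20 to 0.72, adjusted p = 0.527). No receptor passed either, although the inhibitor arrays of *Tnfrsf1a*, *Tnfrsf1b* and *Fas* lay below the LPS arrays without overlap. *Fas* differed by −1.80 (95% confidence interval −2.76 to −0.84, adjusted p = 0.062). Across the alternatives its adjusted p ran from 0.00848 to 0.199. *Tnfrsf1b* differed by −0.64 (95% confidence interval −1.18 to −0.11, adjusted p = 0.151). *Tnfrsf1a* differed by −0.50 on its 10-spot probe (95% confidence interval −0.87 to −0.12, adjusted p = 0.124) and by −0.51 on the other probe (adjusted p = 0.219). A difference in response between ligands and receptors was not tested.

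**Figure D3:**
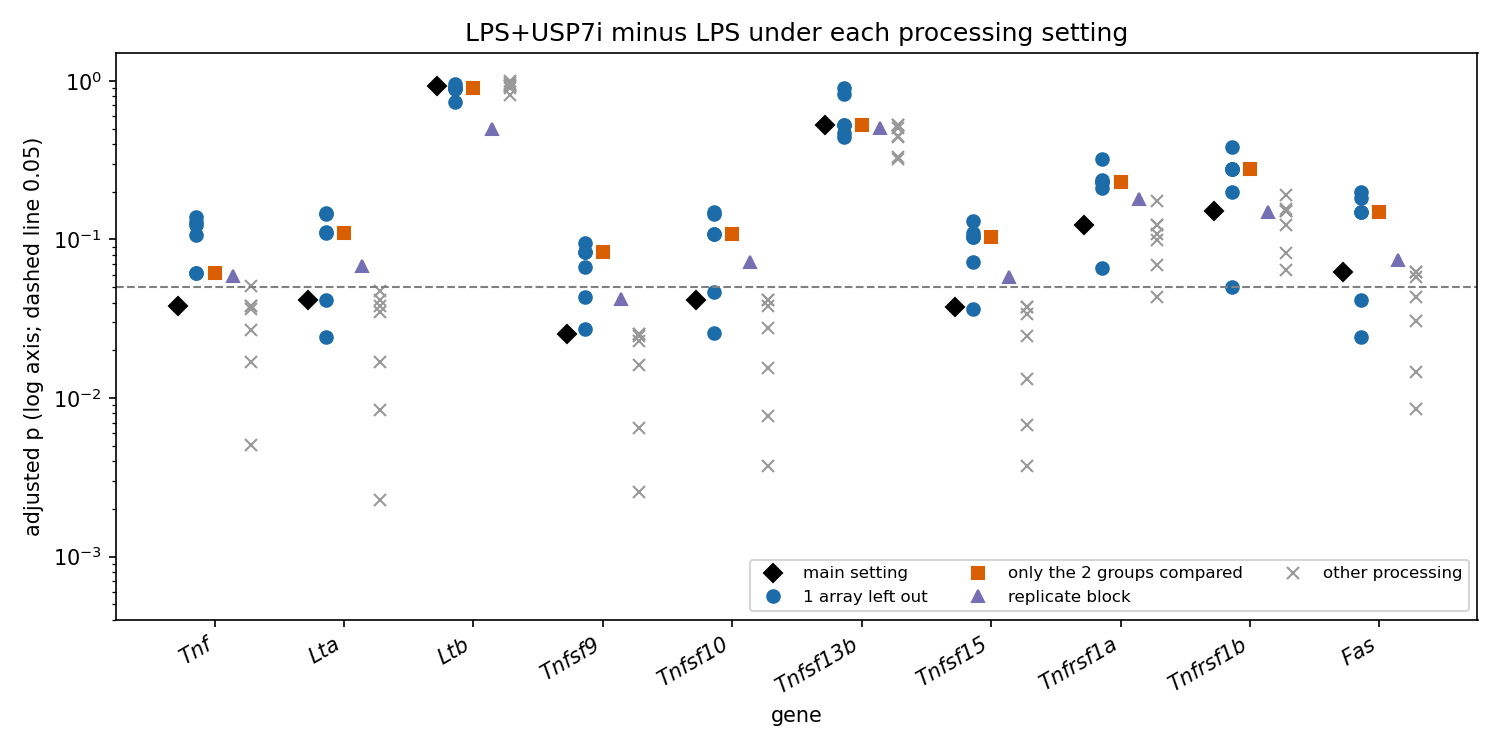
Adjusted p of LPS+USP7i minus LPS for each member under each processing setting, on a log axis with a dashed line at 0.05. Tnf lies between 0.00508 and 0.138, and Tnfsf9 between 0.00255 and 0.0956.

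Replicates within LPS+USP7i were not equally close for all genes. By the brightest probe of each gene, replicate 2 was above replicate 1 in 8 of the 10 members. The gap was 1.38 in *Tnfsf15*, 1.23 in *Tnfsf10*, 0.96 in *Fas* and 0.94 in *Lta*. For *Tnf* the same arrays differed by 0.04. In untreated cells replicate 1 was the higher in 9 of the 10 members.

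Set against untreated cells, LPS+USP7i cells still had 6 of the 10 members higher and 0 lower, where 7.15% of all genes were higher and 12% were lower. At an unadjusted p under 0.05 in limma 7 members were higher and 0 lower, against 13% and 21.5% of all genes. Without overlap of the arrays 7 were higher and 0 lower, against 28.2% and 34.3% of all genes. The members' median difference was 2.58. *Tnf* was higher by 6.84 (adjusted p = 0.00384), *Tnfsf9* by 4.04 (adjusted p = 0.00443) and *Tnfsf10* by 4.27 (adjusted p = 0.0146). *Tnfsf15* was higher by 3.85 (adjusted p = 0.027) and *Fas* by 2.30 (adjusted p = 0.0282), and *Lta* was at least 2.93-fold higher (adjusted p = 0.018). With normexp the *Lta* difference was 0.64, and it was 1.48 in the deposited table, both under this bound. *Tnfrsf1b* differed by 0.93 and missed the threshold (adjusted p = 0.0586). *Tnfrsf1a* differed by 0.04, *Ltb* by 0.39 and *Tnfsf13b* by 0.17, with adjusted p values of 0.967, 0.665 and 0.644. With only these 2 groups in the fit, or without any untreated or LPS array, 2 members were called, and without LPS+USP7i replicate 1 or 2 the counts were 7 and 5.

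Genes with the most similar course over the 6 arrays were looked for among 11647 genes well above background on all of them. Likeness was the root mean square difference between log2 values centred on each gene's own mean, so a small value says that 2 courses ran close together in these 6 arrays and nothing about shared control. Nearest to *Tnf* were *Serpinb2*, *Socs3* and *Socs1*, at 0.31, 0.36 and 0.58. Among the 3 nearest to *Tnfsf15* were *Lhx2* and *Cd40*, at 0.35 and 0.43, the latter a TNF receptor family gene itself. *Tnfsf10* ran closest to *Ifit1bl1*, *Gpr84* and *Trim30c*, at 0.23, 0.26 and 0.29. *Tnfsf9* ran closest to *Wdr92*, *Ripk2* and *Arid5a*, at 0.14, 0.19 and 0.20, and *Fas* to *Setdb2*, *Nod1* and *Rapgef2*, at 0.13, 0.15 and 0.17. The flatter members had closer neighbours, as many genes varied little. Among these were *Zfp207* for *Tnfrsf1a* at 0.04, *Tox4* for *Tnfrsf1b* at 0.06 and *Leng9* for *Tnfsf13b* at 0.07. For *Ltb* they were *Olfr522* and then *Mef2b*, both at 0.09.

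The rest of the pathway was followed through 5 further lists, with counts by the same limma rule as for the members. By that rule 9.09% of all genes were higher and 16.7% lower with LPS, and 6.95% were higher and 5.22% lower with the inhibitor than with LPS. Genes below background on every array are included in those shares. With dim probes left out, 4468 of 25084 probes were higher and 6906 lower with LPS, and 3772 higher and 3287 lower with the inhibitor. All inhibitor calls below rest on the fit with all 6 arrays: with only the LPS and LPS+USP7i groups, or without untreated replicate 1 or 2, 0 of all probes passed in either direction. Of 11 other ligand genes 10 were found, and 3 of these, *Cd40lg*, *Tnfsf11* and *Eda*, were below background on all 6 arrays. With LPS 4 (40%) were higher and 1 (10%) was lower, and with the inhibitor 2 (20%) were higher and 2 (20%) were lower than with LPS. *Tnfsf4*, which encodes OX40 ligand, was at 4.01 and 3.91 in untreated cells, 10.92 and 11.33 after LPS and 11.49 and 11.97 in LPS+USP7i cells. Its untreated arrays were below background, and its LPS+USP7i arrays were the highest. It was at least 142-fold higher with LPS (adjusted p = 0.00253), and the difference of 0.60 with the inhibitor missed the threshold (adjusted p = 0.24).

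*Tnfsf14* encodes LIGHT, which binds HVEM (*Tnfrsf14*) and the lymphotoxin β receptor. It was at 7.77 and 8.34 in untreated cells, 5.97 and 6.69 after LPS and 10.89 and 10.72 in LPS+USP7i cells. Here LPS was lowest and LPS+USP7i highest, without overlap. *Tnfsf14* fell by 1.73 with LPS (adjusted p = 0.0394) and was higher by 4.48 with the inhibitor than with LPS (adjusted p = 0.0144). *Tnfsf18*, which encodes GITR ligand, was at least 3.54-fold higher with LPS (adjusted p = 0.00347) and higher by a further 2.15 with the inhibitor (adjusted p = 0.0142). *Cd70*, which encodes the ligand of CD27, and *Tnfsf8*, which encodes CD30 ligand, went the other way. *Cd70* was at least 21.2-fold higher with LPS (adjusted p = 0.0031) and fell by 3.28 with the inhibitor (adjusted p = 0.0159). *Tnfsf8* rose by 3.42 (adjusted p = 0.0113) and fell by 3.80 (adjusted p = 0.0203), to 4.54 and 5.38 from 8.66 and 8.85.

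All 25 other receptor genes were found, and 6 of them were below background on all 6 arrays. With LPS 4 (16%) were higher and 5 (20%) lower, and with the inhibitor 3 (12%) were higher and 2 (8%) lower than with LPS. These shares are not far from those of all genes, so the receptors below are described singly and not as a group. *Cd40*, the costimulatory receptor for CD40 ligand, was at 7.45 and 7.69 in untreated cells, 15.51 and 15.45 after LPS and 11.61 and 12.61 in LPS+USP7i cells. Its groups did not overlap, in the same order as those of *Tnfsf15*. *Cd40* rose by 7.91 with LPS (adjusted p = 0.00319) and fell by 3.37 with the inhibitor (adjusted p = 0.0228). *Tnfrsf14*, which encodes HVEM, rose by 0.93 (adjusted p = 0.0258) and fell by 1.11 (adjusted p = 0.0315). *Tnfrsf9*, the receptor of 4-1BB ligand, rose by 1.63 with LPS (adjusted p = 0.0141).

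Receptors lower with LPS included *Tnfrsf13b*, which encodes the BAFF receptor TACI (−0.93, adjusted p = 0.0208), *Tnfrsf21*, which encodes the death receptor DR6 (−0.78, adjusted p = 0.0353), and *Tnfrsf26* (−0.71, adjusted p = 0.0459). *Relt* was at least 2.13-fold lower with LPS, where it was below background (adjusted p = 0.0338). With the inhibitor *Tnfrsf12a*, which encodes the TWEAK receptor Fn14, was higher than with LPS by 2.29 (adjusted p = 0.039), *Tnfrsf26* by 1.40 (adjusted p = 0.0215) and *Tnfrsf21* by 0.97 (adjusted p = 0.037).

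**Figure D4:**
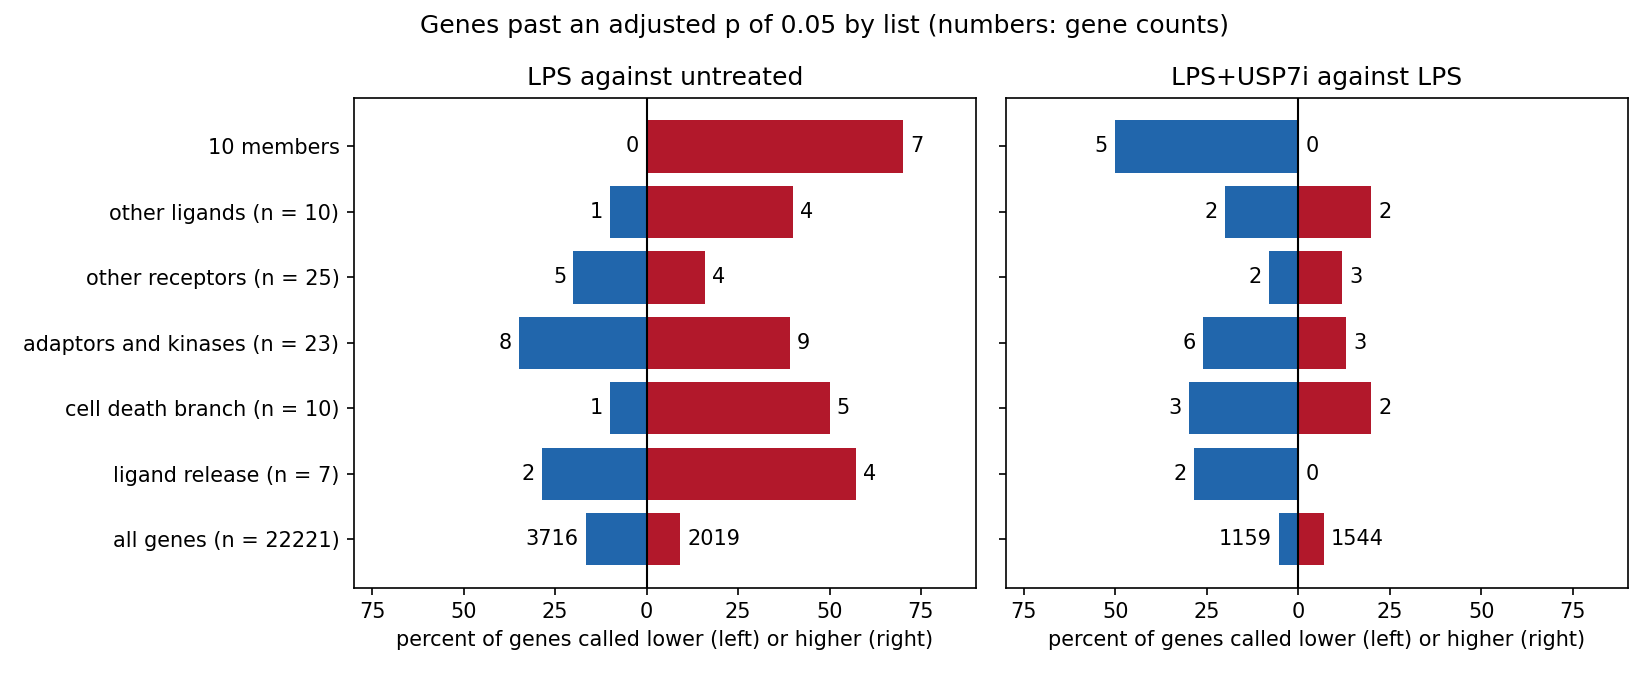
Percent of the genes of each list that passed an adjusted p of 0.05, higher to the right and lower to the left, with gene counts at the bars, for LPS against untreated and LPS+USP7i against LPS. With the inhibitor 5 of the 10 members were lower and 0 higher, while the 10 other ligands were split, 2 higher and 2 lower.

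Downstream of the receptors, 23 adaptor and kinase genes were all found. With LPS 9 (39.1%) were higher and 8 (34.8%) lower, and with the inhibitor 3 (13%) were higher and 6 (26.1%) lower than with LPS. *Tnfaip3*, which encodes the NF-κB feedback inhibitor A20, was at 10.60 and 10.71 in untreated cells, 15.53 and 15.56 after LPS and 15.08 and 15.23 in LPS+USP7i cells. Its LPS and LPS+USP7i arrays were close to each other and far above untreated cells. It rose by 4.89 with LPS (adjusted p = 0.00155). *Traf1*, an adaptor of TNFR2, rose by 3.59 (adjusted p = 0.00351) and fell by 1.64 with the inhibitor (adjusted p = 0.0244). The ubiquitin ligase genes *Birc3* and *Birc2*, whose products bind TRAF2, rose by 2.79 and 1.99 (adjusted p = 0.00335 and 0.00512), and they fell by 1.27 and 1.55 with the inhibitor (adjusted p = 0.0225 and 0.0181). *Rnf31*, which encodes the ligase HOIP of linear ubiquitin chains, rose by 1.95 with LPS (adjusted p = 0.00718) and fell by 1.56 with the inhibitor (adjusted p = 0.0235). *Ikbkb*, which encodes the kinase IKKβ, rose by 1.11 (adjusted p = 0.00494) and fell by 1.29 (adjusted p = 0.012).

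*Map3k14* encodes NIK, the kinase of the noncanonical NF-κB pathway, and *Traf3* an adaptor that keeps NIK low. *Map3k14* was at 10.79 and 10.41 in untreated cells, 8.00 and 7.98 after LPS and 10.04 and 9.74 in LPS+USP7i cells. LPS was the lowest group, without overlap. It fell by 2.61 with LPS (adjusted p = 0.00474) and was higher by 1.90 with the inhibitor than with LPS (adjusted p = 0.0183). *Traf3* fell by 0.48 with LPS (adjusted p = 0.0456) and was higher by 1.49 with the inhibitor (adjusted p = 0.0126). *Otulin*, the deubiquitinase gene for linear chains, was higher by 0.94 with the inhibitor (adjusted p = 0.0212). With LPS *Otulin* fell by 1.03 (adjusted p = 0.00808), *Tab1*, a subunit of the TAK1 kinase complex, fell by 2.11 (adjusted p = 0.0028), and the deubiquitinase gene *Cyld* fell by 0.99 (adjusted p = 0.0371).

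In the cell death branch, 5 of 10 genes (50%) were higher and 1 (10%) was lower with LPS, and 2 (20%) were higher and 3 (30%) lower with the inhibitor. *Cflar*, which encodes the caspase-8 inhibitor c-FLIP, rose by 3.84 (adjusted p = 0.00245). *Mlkl*, the effector of necroptosis, rose by 2.45 (adjusted p = 0.0122). *Casp8*, the initiator caspase gene of death receptors, rose by 1.03 (adjusted p = 0.0112) and fell by 1.09 (adjusted p = 0.0215). The caspase inhibitor gene *Xiap* fell by 0.77 with the inhibitor (adjusted p = 0.0264). *Fadd*, the adaptor of Fas, fell by 1.12 with LPS (adjusted p = 0.00424) and was higher by 0.62 with the inhibitor (adjusted p = 0.0236), and *Ripk3*, a kinase that activates MLKL, was higher by 0.99 (adjusted p = 0.0386).

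Of 7 genes for proteases and cofactors that free these ligands from the membrane, 4 (57.1%) were higher and 2 (28.6%) lower with LPS, and 0 were higher and 2 (28.6%) lower with the inhibitor. *Adam17* encodes the TNF converting enzyme, and the rhomboid proteins encoded by *Rhbdf1* and *Rhbdf2* bring it to the cell surface. *Rhbdf2* was at 10.06 and 10.11 in untreated cells, 12.97 and 12.74 after LPS and 12.25 and 12.26 in LPS+USP7i cells. It fell in 3 separate levels, as *Tnf* did. It rose by 2.77 (adjusted p = 0.00269) and fell by 0.60 with the inhibitor (adjusted p = 0.0468). *Rhbdf1* rose by 0.62 (adjusted p = 0.00916) and fell by 0.61 (adjusted p = 0.0213). *Adam17* rose by 1.25 with LPS (adjusted p = 0.0465) and *Furin*, which cleaves BAFF, by 0.97 (adjusted p = 0.00711), while the intramembrane protease gene *Sppl2b* fell by 1.24 (adjusted p = 0.0031) and *Adam10* fell by 0.62 (adjusted p = 0.0469).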

How the data were processed

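Cy3-labelled total RNA of 6 samples was hybridised to 1-color Agilent mouse arrays. The authors deposited scanner output with spot intensity, background-subtracted by Feature Extraction 10.7.3.1 per the file headers, and a table of normalized log2 values. Set against the scanner values, the deposited log2 table was close to quantile-normalized normexp values of the median signal (59305 of 59305 rows matched by spot number, Pearson r = 1.00, median difference 0.0119, largest 0.513), with array medians of 5.07, 5.10, 5.09, 5.09, 5.10 and 5.09. Its settings are not given in the sources used here. The methods name limma with quantile normalization and an adjusted p of 0.05.

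Here log2 processed signals were quantile-normalized over spots that are not controls, outlier spots were left out, and spots of a probe were averaged. A linear model with all 3 groups was fitted to 55680 probes with limma 3.58.1 in R 4.3.3 (3 residual and 1.05 prior degrees of freedom), with Benjamini-Hochberg adjustment over all probes. The design text describes the 2 samples of a group as independent experiments. The fit was tested on simulated data. Each gene was counted by its brightest probe. Names came from the files for the members and through RefSeq for other genes (26762 probes by accession, 3819 by symbol, 639 by synonym, 24461 unmatched). Probe positions are those of the files (mm9), and no annotation of that build was used. *Tnfsf13* was not found. Figures were drawn with matplotlib 3.10.9.

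The members and lists were chosen with earlier results of these data known. Genes named from the other lists were taken from those past the threshold in 1 of the first 2 comparisons, well above background on both arrays of a group and without overlap, up to 4 with the largest change in each direction. Genes named for likeness were taken from the 3 nearest of each member. Alternatives were 75th percentile scaling, normexp background correction (offset 50), the deposited table, dim probes left out, outlier spots kept, a trended prior, only the 2 groups compared, a replicate block, each array left out, and the mean of a gene's probes.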

Additional observations from a re-analysis of the deposited data

How the results depend on the processing

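With LPS, 6 members were called in all 15 alternatives. With the inhibitor, 0 members were called in all 15 and 3 (*Ltb*, *Tnfsf13b* and *Tnfrsf1b*) in none. The main counts were 5 members lower in LPS+USP7i minus LPS and 6 higher in LPS+USP7i minus untreated, and, over all 55680 probes, 3948 higher and 5947 lower with LPS, 2595 higher and 2109 lower with the inhibitor, and 3147 higher and 4086 lower in LPS+USP7i against untreated cells. Under 75th percentile scaling the median of all probes moved by 0.51 with LPS and by 0.55 in LPS+USP7i against untreated cells, and 21768 probes were higher with LPS beside 5669 lower, and 21937 beside 4605 in LPS+USP7i against untreated cells. Relative to those medians *Tnf* rose by 7.39 and *Tnfrsf1b* by 1.57 with LPS, and *Tnfsf13b* stood at −0.61. In LPS+USP7i minus LPS, 3242 probes were lower with normexp and 3287 with dim probes left out. With only the 2 groups compared, 0 probes were higher and 0 lower with the inhibitor and 0 members were lower, and 2 members, 1994 probes higher and 2690 lower were called in LPS+USP7i against untreated cells. The replicate number as a block in limma, where each number takes in 1 array of every group, left 1 member lower with the inhibitor. It called 8 higher with LPS, *Ltb* among them (0.52, adjusted p = 0.0496). The number also matches the row on the slide, and number and row cannot be told apart. Deviations of same-numbered arrays correlated at 0.47, 0.40 and 0.42 across probes, and the labels do not say that a number marks a shared experiment. With each array left out in turn, members lower with the inhibitor numbered 0 to 4 and members higher in LPS+USP7i against untreated cells 2 to 7. Probes higher and lower numbered 1632 to 3696 and 2385 to 5481 with LPS, 0 to 2855 and 0 to 1703 with the inhibitor, and 680 to 2970 and 877 to 2690 in LPS+USP7i against untreated cells. A group with 1 array left is assumed to vary like the others. Of the differences that turned sign, none of which was called, *Tnfsf13b* with LPS was 0.07 without untreated replicate 1 and 0.02 without LPS replicate 2 (−0.24 without untreated replicate 2), *Ltb* with the inhibitor was 0.12 without LPS replicate 1 and 0.20 without LPS+USP7i replicate 2 (−0.46 without LPS+USP7i replicate 1), and *Tnfrsf1a* in LPS+USP7i against untreated cells was −0.02 without untreated replicate 2 and −0.12 without LPS+USP7i replicate 2. Fewer arrays leave fewer degrees of freedom, and the cause of the other changes was not tested.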

Other observations

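Several cell type markers differed between the replicates in the same direction in all 3 groups. The B cell gene *Cd79b*, well above background on all 6 arrays, was higher in replicate 1 than in replicate 2 in untreated, LPS and LPS+USP7i cells, by 0.45, 0.61 and 0.87. Of the 4 neutrophil markers well above background on all 6 arrays, 2 had that order and 2 the opposite. *Mpo* was higher in replicate 1 by 1.94, 1.98 and 1.65 and *Ly6g* by 0.99, 0.83 and 0.73. For *Camp* replicate 1 minus replicate 2 was −1.14, −1.72 and −1.75, and for *Elane* −0.22, −0.27 and −0.13. The part of other cells in the ligand and receptor values was not tested.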
